A study of Mus musculus with 11 samples.

Results

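The transcription factors that define the melanocyte lineage and the receptor and ligand pairs through which skin supports it were followed as a set of 10 genes in neonatal mouse skin. The set was chosen by name and function: the factors Mitf, Sox10 and Pax3, the receptors Kit, Ednrb and Met, and the ligands Kitl, Edn3, Edn1 and Hgf. All 10 were among the 49315 genes of the deposited table, and all 10 were among the 18375 genes that passed the filter on low counts and were tested.

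Whole skin of 11 Foxp3-DTR mice on a C57BL/6J background was sequenced in bulk, with 1 mouse in each library. These mice (B6.129(Cg)-Foxp3tm3(DTR/GFP)Ayr/J) carry the diphtheria toxin receptor and GFP under the control of Foxp3, so that diphtheria toxin (DT) removes Foxp3-expressing regulatory T cells (Tregs). In the paper's pigmentation experiments the control mice were Foxp3-DTR mice given PBS. The control mice here are taken to carry the same allele. DT was dosed at 30 ng per g of body weight. In ΔETreg mice (n = 3) it was injected on postnatal day 6 (P6) and P8, and skin was taken on P9. In ΔLTreg mice (n = 3) the injections fell on P10 and P12, with skin taken on P13. ΔTreg mice (n = 3) received all 4 injections between P6 and P12 and were also harvested on P13. The Treg-sufficient control mice (n = 2) received PBS, their harvest day is not in the labels, and the same 2 mice served in every comparison with control. The paper describes age-matched controls, at P9 and at P13, but the 11 samples hold only these 2 PBS mice. ΔTreg and ΔLTreg mice therefore shared an age, whereas age and treatment cannot be told apart in ΔETreg against ΔLTreg or in ΔTreg against ΔETreg, and may not be separable in the comparisons with control. Libraries held 23377571 to 34159435 counts. The expression level of a gene is given as CPM, its counts over a fixed library total scaled between libraries by the TMM method, and a gene counts as higher or lower where edgeR's quasi-likelihood test gave a Benjamini-Hochberg adjusted p under 0.05 over all genes tested.

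MITF is the basic helix-loop-helix factor that switches on melanin synthesis genes such as Tyr, Tyrp1 and Dct, and SOX10 and PAX3 are activators of Mitf itself. KIT, the receptor for KIT ligand (encoded by Kitl), is needed for the migration and survival of melanoblasts, and EDNRB, the endothelin receptor of this lineage, answers to endothelin 3 and endothelin 1. HGF acts on melanocytes through MET and, like KIT ligand and the endothelins, is made by the cells around them. In bulk skin, fewer cells of a type and less RNA per cell cannot be told apart, and most of these genes are also transcribed in other skin cells.

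Calls in the set were most frequent in ΔTreg against control, where age and treatment may not be separable. Against ΔLTreg skin of the same age, 5 of the 10 genes were called. In ΔTreg skin 8 of the 10 genes differed from control (21.5% of all genes tested did). Of these, 7 were lower (9.39% of all genes) and 1 was higher (12.1% of all genes). The lower genes were Sox10, Pax3, Kit, Ednrb, Met, Kitl and Edn3, and the higher gene was Hgf. Mitf and Edn1 did not pass the test. Without the second control mouse 5 of the 8 were called (Kit, Ednrb, Kitl, Edn3 and Hgf). The median log2 fold change over the set was −0.50, against −0.01 over all genes tested. The CPM of the 3 ΔTreg mice did not overlap with that of the 2 control mice for 9 of the 10 genes, with 7 below and 2 above, in a comparison where 52.5% of all genes did not overlap.

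**Figure D1:**
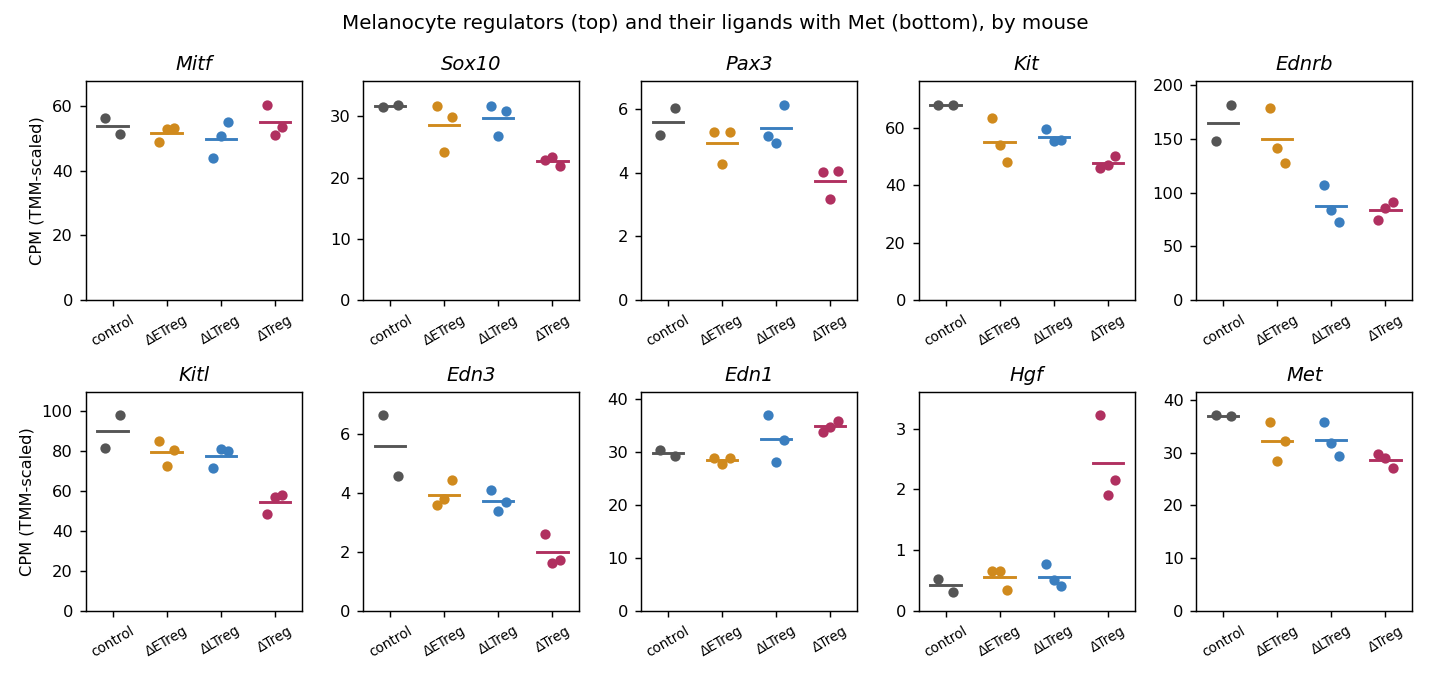
Level of each of the 10 genes in every mouse (CPM, TMM-scaled, axes starting at 0), with 1 point a mouse and a bar for the mean of the group (2 control mice, 3 mice in each depleted group). The ΔTreg points sit below both control points for Sox10, Pax3, Kit, Ednrb, Kitl, Edn3 and Met, above them for Edn1 and Hgf, and among them for Mitf.

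Promoter sequences are shown for Mitf, the factor that did not pass the test in any comparison, and for the 4 genes with the largest fold changes in ΔTreg skin. They come from RefSeq on GRCm38.p6, span 250 bases before to 50 bases after the annotated start and read 5′ to 3′ on the strand of the gene. Entries were present for 8 of the 10 genes, and Sox10 and Pax3 had none in the table used. Capitals mark matches, on either strand, to any of 5 short motifs: CATGTG (the core of the M-box bound by MITF), CACGTG (the E-box), ACAAAG (a SOX core), TGACGTCA (the cyclic AMP response element) and CTTTGA (a LEF and TCF core).
Mitf, most 3′ of 3 starts, chr6:97991533-97991832, plus strand: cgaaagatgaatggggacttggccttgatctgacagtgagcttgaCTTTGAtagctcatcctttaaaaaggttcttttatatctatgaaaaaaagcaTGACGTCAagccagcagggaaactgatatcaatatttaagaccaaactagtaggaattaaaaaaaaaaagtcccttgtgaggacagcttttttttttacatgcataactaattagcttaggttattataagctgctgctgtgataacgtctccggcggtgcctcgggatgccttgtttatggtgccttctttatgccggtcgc
Ednrb, chr14:103843652-103843951, minus strand: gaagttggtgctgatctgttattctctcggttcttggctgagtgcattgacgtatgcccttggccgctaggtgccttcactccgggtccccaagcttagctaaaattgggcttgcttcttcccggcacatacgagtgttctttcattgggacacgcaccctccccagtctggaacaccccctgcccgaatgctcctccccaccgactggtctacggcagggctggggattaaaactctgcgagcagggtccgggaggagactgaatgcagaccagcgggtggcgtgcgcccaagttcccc
Kitl, chr10:100015571-100015870, plus strand: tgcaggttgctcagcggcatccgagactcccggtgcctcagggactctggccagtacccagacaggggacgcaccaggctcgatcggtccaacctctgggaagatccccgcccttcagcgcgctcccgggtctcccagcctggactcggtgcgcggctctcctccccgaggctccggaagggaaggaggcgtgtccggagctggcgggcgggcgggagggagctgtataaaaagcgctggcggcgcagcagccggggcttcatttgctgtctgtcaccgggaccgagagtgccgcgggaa
Edn3, chr2:174760369-174760668, plus strand: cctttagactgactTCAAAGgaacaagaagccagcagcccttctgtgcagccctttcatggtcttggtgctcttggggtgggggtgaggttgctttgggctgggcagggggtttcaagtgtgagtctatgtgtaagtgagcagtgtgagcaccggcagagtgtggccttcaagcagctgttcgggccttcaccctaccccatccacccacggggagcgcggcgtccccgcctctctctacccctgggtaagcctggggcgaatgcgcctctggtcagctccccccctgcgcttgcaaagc
Hgf, first of 2 starts, chr5:16553245-16553544, plus strand: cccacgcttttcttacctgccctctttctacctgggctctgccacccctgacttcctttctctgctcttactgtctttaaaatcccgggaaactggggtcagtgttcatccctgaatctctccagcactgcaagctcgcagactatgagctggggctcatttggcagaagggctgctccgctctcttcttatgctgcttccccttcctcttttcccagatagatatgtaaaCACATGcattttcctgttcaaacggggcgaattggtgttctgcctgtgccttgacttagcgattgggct
The Mitf window held the cyclic AMP response element at position −153 and the LEF core at −205, counted from the start. The most 3′ promoter of Mitf is the one known to drive the melanocyte isoform, and the counts of Mitf pool it with the transcripts of the other starts. The Edn3 window held a LEF core at −236, and the Hgf window held an M-box core at −19. The Ednrb and Kitl windows held none of the 5. Over all 32851 mouse promoters of the same length, 14.2% held CATGTG, 7.15% held CACGTG, 18.7% held ACAAAG, 1.79% held TGACGTCA and 16% held CTTTGA. Except for the cyclic AMP response element, these are common matches, and none was tested here as a binding site.

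Mitf (chromosome 6 of GRCm38, 97807052 to 98021349) was at 56.2 and 51.3 CPM in the 2 control mice, at 48.8, 52.8 and 53.1 CPM in ΔETreg mice, at 43.8, 50.6 and 55 CPM in ΔLTreg mice and at 60.4, 51.1 and 53.5 CPM in ΔTreg mice. The groups overlapped throughout. The log2 fold change in ΔTreg against control was 0.03 (SE 0.0977, 95% interval −0.18 to 0.25, adjusted p = 0.854), so that a fall or a rise larger than 0.25 on the log2 scale lies outside the interval. Against ΔLTreg it was 0.14 (SE 0.0873, adjusted p = 0.302).

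Sox10 (chromosome 15, 79154908 to 79165240), the neural crest factor that acts upstream of Mitf, was at 31.5 and 31.9 CPM in control mice, at 31.7, 24.1 and 29.9 CPM in ΔETreg mice and at 31.7, 26.7 and 30.9 CPM in ΔLTreg mice. In ΔTreg mice it was at 22.9, 23.3 and 21.8 CPM, below every other mouse of the series. It fell by 0.48 on the log2 scale against control (SE 0.109, adjusted p = 0.00922). Schwann cells also make SOX10, and their part in the change was not tested. Without the second control mouse the adjusted p of Sox10 was 0.0611, with the log2 fold change still negative.

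Pax3 (chromosome 1, 78101267 to 78197134), the paired box factor of melanoblasts and also of muscle progenitors, had the lowest level of the 3 factors per base of exon. Control mice had 5.18 and 6.02 CPM, ΔETreg mice 5.29, 4.27 and 5.27 CPM, ΔLTreg mice 5.16, 4.94 and 6.14 CPM, and ΔTreg mice 4.03, 3.18 and 4.05 CPM. The ΔTreg mice were again the lowest of the series. Pax3 fell by 0.58 on the log2 scale in ΔTreg against control (SE 0.162, adjusted p = 0.0264). This call was lost without the second control mouse (adjusted p = 0.184), without the second ΔTreg mouse (adjusted p = 0.0878) and with DESeq2 (adjusted p = 0.0537). Of 8 muscle markers 6 were tested, and Myh3 and Myh8, the embryonic and neonatal myosin heavy chains, were lower in ΔTreg than in control skin. In ΔTreg against ΔLTreg, where Pax3 was also called, 4 of the 6 were lower (Myod1, Myog, Myh3 and Myh8), against 6.11% of all genes. The summed level of the 8 markers was 1040 to 1110 CPM in control, 859 to 1350 CPM in ΔETreg, 1040 to 2830 CPM in ΔLTreg and 623 to 1280 CPM in ΔTreg skin. Acta1 made up most of this sum, with a mean of 729 CPM in control and 899 CPM in ΔTreg skin, so the sum says little about the other markers. The share of muscle in the change of Pax3 was not tested.

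Kit (chromosome 5, 75574916 to 75656722) was at 67.9 and 68 CPM in control mice, the closest pair of values in the set. It was at 63.2, 53.9 and 47.9 CPM in ΔETreg mice, at 59.4, 55.2 and 55.5 CPM in ΔLTreg mice and at 46.0, 46.9 and 50 CPM in ΔTreg mice, so that all 9 depleted mice lay below both control mice. Kit fell by 0.51 on the log2 scale in ΔTreg against control (SE 0.0928, adjusted p = 0.0027). Mast cells also carry KIT. The summed level of 11 mast cell markers was 156 to 163 CPM in control, 117 to 139 CPM in ΔETreg, 64.2 to 137 CPM in ΔLTreg and 140 to 172 CPM in ΔTreg skin. In ΔTreg against control, Mrgprb2, a mast cell receptor, was lower and Hdc, which makes histamine, was higher. The mean of Hdc was 19.7 CPM in ΔTreg and 5.46 CPM in control skin, which raised the ΔTreg sum. The other 9 markers did not pass the test. Of these, Cma1, Cpa3 and Tpsb2 lay below both control mice in every ΔTreg mouse, and the rest overlapped with control. The part of mast cells in the level of Kit was not tested.

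Ednrb (chromosome 14, 103814625 to 103844402, on the minus strand) was the only gene of the set called in a comparison of partial depletion with control, and it was low in both groups that received the late injections. It was at 148 and 182 CPM in control mice and at 179, 142 and 128 CPM in ΔETreg mice, which overlapped. In ΔLTreg mice it was at 107, 84 and 72.4 CPM, and in ΔTreg mice at 74.9, 85.5 and 90.9 CPM, all 6 below every control and ΔETreg mouse. Ednrb fell by 0.91 on the log2 scale in ΔLTreg against control (SE 0.17, adjusted p = 0.0144) and by 0.98 in ΔTreg against control (SE 0.17, adjusted p = 0.00205). Tested directly, ΔETreg exceeded ΔLTreg by 0.77 on the log2 scale (SE 0.155, 95% interval 0.43 to 1.11, adjusted p = 0.017). ΔTreg against ΔLTreg, both at P13, gave −0.07 (95% interval −0.41 to 0.28, adjusted p = 0.817). Since the low groups are those known to have been harvested at P13, age and late depletion cannot be told apart for this gene.

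The ΔLTreg call for Ednrb rested on few mice. Without the second control mouse its adjusted p was 0.109, and with edgeR on the libraries of those 2 groups alone it was 0.0844. The difference between ΔETreg and ΔLTreg had an adjusted p of 0.0533 without the first ΔETreg mouse, 0.055 without the second and 0.0534 with the 2 groups alone. Among 9 markers of dermal papilla and dermal fibroblasts, 4 were lower in ΔLTreg and 7 were lower in ΔTreg than in control skin. Alx4, Crabp1 and Hhip were lower in both, Pdgfra in ΔLTreg, and Corin, Sox18, Rspo3 and Col1a1 in ΔTreg. The summed level of the 9 was 7710 to 8440 CPM in control, 5330 to 9890 CPM in ΔETreg, 3700 to 7830 CPM in ΔLTreg and 3840 to 4330 CPM in ΔTreg skin. Col1a1 made up most of this sum, with a mean of 7830 CPM in control and 3850 CPM in ΔTreg skin, so the sum says little about the other markers. Their part in the level of Ednrb, which dermal cells also transcribe, was not tested.

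Met (chromosome 6, 17463800 to 17573980), the HGF receptor of melanocytes, epithelium and muscle progenitors, was at 37.1 and 36.9 CPM in control mice. ΔETreg mice had 35.8, 28.5 and 32.2 CPM, ΔLTreg mice 35.9, 31.9 and 29.4 CPM, and ΔTreg mice 29.7, 29 and 27.1 CPM. All 9 depleted mice were below the controls, and the groups of depleted mice overlapped with each other. Met fell by 0.37 on the log2 scale in ΔTreg against control (SE 0.101, adjusted p = 0.0228), the smallest change among the 8 genes of the set called in that comparison. The call was lost without either control mouse (adjusted p = 0.0791 and 0.1), without the second ΔTreg mouse (0.0545) and without the third (0.0706).

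**Figure D2:**
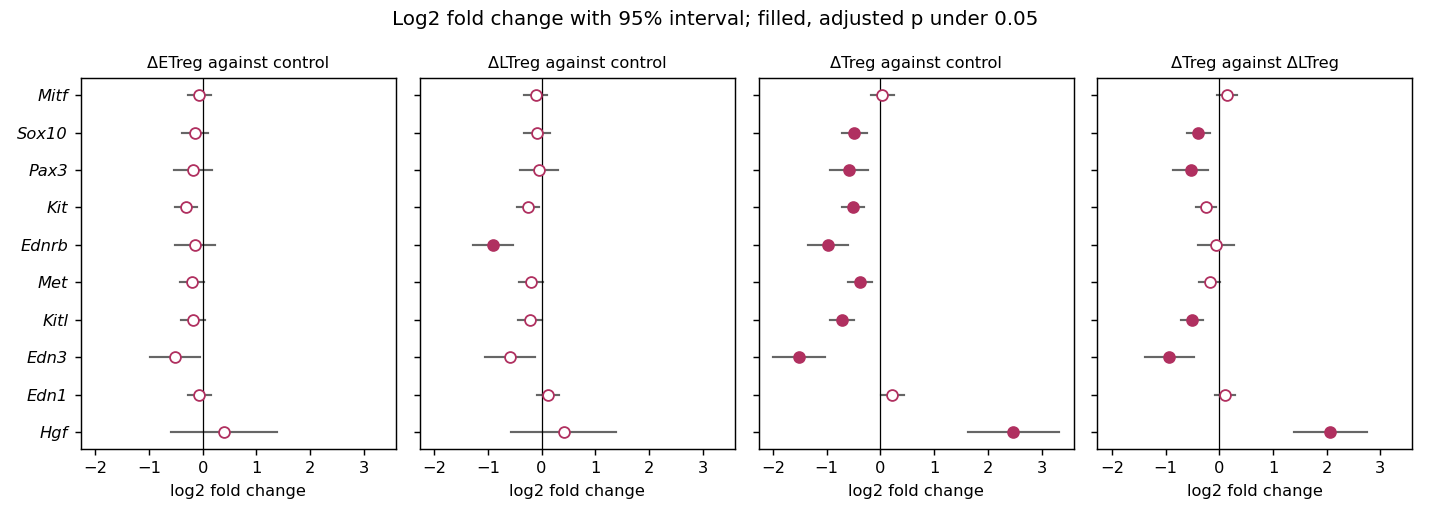
Log2 fold change of each gene in 4 of the 6 comparisons, with its 95% interval from edgeR's quasi-likelihood fit and a filled point where the adjusted p was under 0.05. No point is filled for ΔETreg against control, 1 (Ednrb) for ΔLTreg against control, 8 for ΔTreg against control and 5 for ΔTreg against ΔLTreg.

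Among the ligands, Kitl (chromosome 10, 100015630 to 100100416) was at 81.8 and 98 CPM in control mice, at 85.3, 72.8 and 80.6 CPM in ΔETreg mice and at 71.5, 80.9 and 80.3 CPM in ΔLTreg mice. In ΔTreg mice it was at 48.4, 56.9 and 58.1 CPM, below all other mice. Kitl fell by 0.72 on the log2 scale in ΔTreg against control (SE 0.102, adjusted p = 0.00058), by 0.51 against ΔLTreg (SE 0.0926, adjusted p = 0.00323) and by 0.54 against ΔETreg (SE 0.0927, adjusted p = 0.00148). Keratinocytes and dermal papilla cells are sources of KIT ligand. The summed level of 7 keratinocyte markers was 10400 to 10700 CPM in control and 10600 to 10900 CPM in ΔTreg skin. Of the 7, 2 were lower, Krt1 (log2 fold change −1.93) and Krt10 (−0.66), against 9.39% of all genes. Krt14 (0.40) was higher, against 12.1% of all genes. Krt5, Krt14 and Krt10 made up most of the sum, so it says little about the other markers. Of the dermal markers given beside Ednrb, 7 of 9 were lower in ΔTreg than in control skin. Their sum, mostly Col1a1, was 3840 to 4330 CPM against 7710 to 8440 CPM in control. In ΔLTreg against control 4 of the 9 were lower, where Kitl was not called (log2 fold change −0.21, adjusted p = 0.275). In ΔTreg against ΔLTreg, where Kitl fell, 2 of the 9 were lower and 1, Pdgfra, was higher. In ΔTreg against control, 2 of 7 hair matrix markers were lower. The hair matrix sum was 1950 to 2090 CPM in control and 1780 to 1900 CPM in ΔTreg skin. The part of these cells in the level of Kitl was not tested. Per base of exon (RPKM), Kitl exceeded Kit in every mouse, by 1.82- and 2.17-fold in control mice and by 1.58- to 1.83-fold in ΔTreg mice.

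Edn3 (chromosome 2, 174760619 to 174784042) had the largest decrease of the set. Control mice had 6.65 and 4.58 CPM, ΔETreg mice 3.59, 3.81 and 4.46 CPM, ΔLTreg mice 4.11, 3.41 and 3.69 CPM, and ΔTreg mice 2.62, 1.63 and 1.73 CPM. The values formed 3 levels that did not overlap, with control highest, the partial depletions together in the middle and full depletion lowest. The lower control mouse, at 4.58 CPM, was close to the highest ΔETreg mouse, at 4.46 CPM. The middle level held mice of P9 and of P13. Edn3 fell by 1.52 on the log2 scale in ΔTreg against control (SE 0.22, 2.87-fold, adjusted p = 0.000683), by 0.93 against ΔLTreg (SE 0.205, adjusted p = 0.00983) and by 1.00 against ΔETreg (SE 0.206, adjusted p = 0.00472). The middle level did not pass the test against control, with log2 fold changes of −0.51 in ΔETreg (SE 0.211, adjusted p = 1) and −0.59 in ΔLTreg (SE 0.21, adjusted p = 0.144). Of the same 9 dermal markers, whose cells are a source of Edn3, 7 were lower in ΔTreg and 4 in ΔLTreg against control, and their part in the level of Edn3 was not tested.

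Edn1 (chromosome 13, 42301476 to 42307990), the endothelin made by keratinocytes and endothelium, did not follow Edn3. It was at 30.5 and 29.3 CPM in control, 29, 27.8 and 29 CPM in ΔETreg, 37, 28.1 and 32.4 CPM in ΔLTreg and 33.9, 34.8 and 36 CPM in ΔTreg mice. The ΔTreg mice lay above the controls and the ΔETreg mice but among the ΔLTreg mice. The log2 fold change was 0.22 in ΔTreg against control (SE 0.0951, adjusted p = 0.122) and 0.29 in ΔTreg against ΔETreg (SE 0.0847, adjusted p = 0.0315). The latter call was lost when any 1 of the 6 mice compared was left out, with adjusted p-values of 0.0642 to 0.101. Of 8 endothelial markers 2 were lower and 2 higher in ΔTreg against control, with sums of 277 to 284 CPM in control and 289 to 323 CPM in ΔTreg skin, and their part in the level of Edn1 was not tested. Per base of exon, the ratio of Edn3 to Edn1 was 0.114 and 0.0814 in control, 0.0642 to 0.0799 in ΔETreg, 0.0577 to 0.0632 in ΔLTreg and 0.0244 to 0.0402 in ΔTreg mice. An antisense gene, Gm47118, overlaps 35 bases of the Edn1 exons, and reads from the 2 strands cannot be told apart without strand.

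Hgf (chromosome 5, 16553495 to 16620152) was the 1 gene of the set that rose in ΔTreg skin, and it also had the lowest level per base of exon. It had 15 and 8 counts in control mice, 19, 20 and 8 counts in ΔETreg mice, 26, 13 and 13 counts in ΔLTreg mice and 75, 64 and 70 counts in ΔTreg mice. All lay above the 3 counts taken as the limit of detection. Scaled to CPM, control mice had 0.525 and 0.319, ΔETreg mice 0.662, 0.657 and 0.343, ΔLTreg mice 0.775, 0.51 and 0.407, and ΔTreg mice 3.22, 1.9 and 2.16. Every ΔTreg mouse was above all 8 other mice. Hgf rose 5.57-fold against control (log2 fold change 2.48, SE 0.387, adjusted p = 0.00107), with log2 fold changes of 2.07 against ΔLTreg (SE 0.312, adjusted p = 0.00101) and 2.08 against ΔETreg (SE 0.317, adjusted p = 0.000719). The ratio of Hgf to Met per base of exon was 0.0151 and 0.00922 in control mice and 0.0701 to 0.116 in ΔTreg mice. Gm43489, an unclassified transcript on the same strand, shares 484 bases with the Hgf exons, so the count is uncertain to that extent.

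Markers of immune cells moved with Hgf. Of 7 macrophage markers 5 were higher in ΔTreg than in control skin, and their summed level was 192 to 242 CPM in control, 136 to 210 CPM in ΔETreg, 105 to 243 CPM in ΔLTreg and 478 to 647 CPM in ΔTreg skin. All 6 T cell markers were higher, with sums of 11.8 to 14.7 CPM in control and 49.9 to 61.1 CPM in ΔTreg skin. Among them, Cd8a had 0 to 3 counts and Trac 2 to 9 counts in mice outside the ΔTreg group. Both passed the filter on low counts only through the ΔTreg mice, so their calls followed from the filter. Of the 9 dermal markers named above, 7 were lower in ΔTreg than in control skin. Against ΔLTreg, where Hgf also rose, 2 of the 9 were lower and 1 was higher (Pdgfra, log2 fold change 1.02, adjusted p = 0.01). The part of any of these cells in the rise of Hgf was not tested.

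Few genes of the set were called in the partial depletions, although most had a negative log2 fold change. Against control, 9 of the 10 were negative in ΔETreg skin (median −0.16, against −0.01 over all genes tested) and 8 of the 10 in ΔLTreg skin (median −0.15, against 0.00). In ΔETreg skin, edgeR's quasi-likelihood test called 0 of the 10 genes (0.00544% of all genes, a single gene, passed), and DESeq2 also called 0. At an unadjusted p under 0.05 there were 2, Kit with a log2 fold change of −0.30 and Edn3 with −0.51, where 4.75% of all genes passed. For 4 genes, Kit, Edn3, Edn1 and Met, the ΔETreg and control mice did not overlap, and all 4 were below control, against 19.7% of all genes without overlap. In ΔLTreg skin 1 of 10 genes, Ednrb, was called (4.55% of all genes), and 5 genes did not overlap with control (32.2% of all genes), namely Kit, Ednrb, Kitl, Edn3 and Met, all below. These comparisons share the 2 control mice, so a low or high control value enters each of them.

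The comparison of ΔTreg with ΔLTreg mice, which were of the same age, does not use the controls. Of the 10 genes, 5 differed between ΔTreg and ΔLTreg skin (16.8% of all genes), 4 of them lower (Sox10, Pax3, Kitl and Edn3, 6.11% of all genes) and 1 higher (Hgf, 10.7% of all genes). Without the third ΔLTreg mouse, or without the first ΔTreg mouse, 3 were called. For 6 genes the mice of the 2 groups did not overlap (35.9% of all genes), with Kit the sixth. Sox10 fell by 0.40 on the log2 scale (SE 0.0982, adjusted p = 0.0181) and Pax3 by 0.53 (SE 0.145, adjusted p = 0.0278). Kit had a log2 fold change of −0.25 (SE 0.0839, adjusted p = 0.0657) and was called with DESeq2 (adjusted p = 0.0151), with edgeR on the 2 groups alone (0.0233) and without the filter on low counts (0.0178). The call for Sox10 was lost without the first or the third ΔLTreg mouse (adjusted p = 0.0517 and 0.0544) and without the first or the third ΔTreg mouse (0.0537 and 0.067). That for Pax3 was lost without the third ΔLTreg mouse (0.0911), without the first or second ΔTreg mouse (0.0519 and 0.11) and on the 2 groups alone (0.0551).

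ΔETreg and ΔLTreg skin differed in 1 of the 10 genes, Ednrb (6.38% of all genes differed), or in 2 without the second ΔLTreg mouse, with Edn1 lower in ΔETreg (adjusted p = 0.0487). ΔTreg and ΔETreg skin differed in 6 (23.1% of all genes), with Sox10, Ednrb, Kitl and Edn3 lower (9.81% of all genes) and Edn1 and Hgf higher (13.2% of all genes). There, Ednrb fell by 0.84 on the log2 scale (SE 0.155, adjusted p = 0.00255). Sox10 fell by 0.33 (SE 0.0985, adjusted p = 0.0304), a call lost without the first or the third ΔETreg mouse or any 1 of the ΔTreg mice, with adjusted p-values of 0.0626 to 0.127.

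Levels of different genes were compared only per base of exon (RPKM). Over the 11 mice the mean was 27.5 for Ednrb, 14.8 for Edn1, 12.5 for Kitl, 9.13 for Sox10, 8.46 for Mitf, 6.26 for Kit, 4.19 for Met, 0.891 for Edn3, 0.786 for Pax3 and 0.145 for Hgf. Neighbours in this order overlapped over the 11 mice, other than Kit and Met, Met and Edn3, and Pax3 and Hgf. In ΔTreg mice the order of Sox10 and Mitf was exchanged, with Sox10 at 7.49, 7.65 and 7.13 RPKM and Mitf at 9.75, 8.25 and 8.64 RPKM, while in control mice Sox10 was at 10.3 and 10.4 RPKM and Mitf at 9.08 and 8.27 RPKM. The order was also exchanged in the second ΔETreg mouse (Sox10 at 7.91 and Mitf at 8.52 RPKM), but not in the other ΔETreg mice or in ΔLTreg mice.

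In ΔTreg skin Mitf did not pass the test, while most of the pigment genes that it is known to activate were lower. Over the 11 mice the level of Mitf correlated negatively with Tyr, Tyrp1, Dct, Pmel and Mlana (r = −0.466 to −0.355, within groups −0.6 to −0.278). That of Sox10 correlated positively with the same genes (0.881 to 0.952, within groups 0.653 to 0.895). These correlations are a description, with no test, and those of Mitf over the 11 mice are weak. The level of Mitf is that of whole skin and pools all cells that transcribe it. Of 14 genes for pigment cell products, 13 were lower in ΔTreg than in control skin (92.9%, against 9.39% of all genes lower), with a median log2 fold change of −0.91, and 1 did not pass the test (Gpnmb, log2 fold change 0.04, adjusted p = 0.852), which macrophages also make. Oca2, a melanosomal transporter, fell by 1.07 on the log2 scale (SE 0.117, adjusted p = 0.00011), Trpm1, a melanocyte channel, by 0.94 (SE 0.112, adjusted p = 0.000185), and Tyr, tyrosinase, by 0.94 (SE 0.122, adjusted p = 0.000331). Against ΔLTreg, 12 of the 14 were lower (Rab38, a melanosome trafficking GTPase, by 0.67), and against ΔETreg 10 of the 14 were lower. In ΔETreg against control, 0 of the 14 passed edgeR's adjusted test or that of DESeq2, although 11 were lower at an unadjusted p under 0.05 and the median was −0.36. In ΔLTreg against control, 0 passed with either tool, 2 were lower at an unadjusted p under 0.05 and the median was −0.17.

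The mean log2 CPM of Tyr, Tyrp1, Dct, Pmel and Mlana was 7.48 and 7.78 in control mice, 7.38, 6.94 and 7.23 in ΔETreg mice, 7.59, 7.37 and 7.48 in ΔLTreg mice, and 6.75 to 6.79 in ΔTreg mice. Relative to that mean, log2 Mitf stood at −1.67 and −2.09 in control mice, between −1.77 and −1.22 in ΔETreg mice, between −2.14 and −1.70 in ΔLTreg mice, and between −1.11 and −0.87 in ΔTreg mice. The ΔTreg mice were above all others on this measure, which is higher there for any gene that fell less than the pigment genes. Edn1 and Met were also higher on it, at group means of −1.65 and −1.94 in ΔTreg against −2.73 and −2.42 in control mice. The rise is therefore not particular to Mitf. Sox10 ranged from −2.78 to −2.51 in control, from −2.39 to −2.32 in ΔETreg, from −2.63 to −2.53 in ΔLTreg and from −2.30 to −2.24 in ΔTreg mice, so that the ΔETreg mice were also above control. Kit ranged from −1.69 to −1.40 in control, from −1.65 to −1.19 in ΔETreg, from −1.70 to −1.58 in ΔLTreg and from −1.27 to −1.10 in ΔTreg mice. Pax3 was at −5.17 and −5.09 in control, from −4.96 to −4.81 in ΔETreg, from −5.21 to −4.85 in ΔLTreg and from −5.09 to −4.70 in ΔTreg mice, and only the ΔETreg mice were all above control. Ednrb was near its control value in ΔTreg mice, from −0.57 to −0.24 against −0.28 and −0.27, and lower in ΔLTreg mice, from −1.30 to −0.85. These ratios are given as a description, with no test. A marker list of 10 melanocyte genes, 5 of which are in the set, had sums of 1450 to 1690 CPM in control, 1050 to 1380 CPM in ΔETreg, 1240 to 1440 CPM in ΔLTreg and 905 to 923 CPM in ΔTreg skin.

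**Figure D3:**
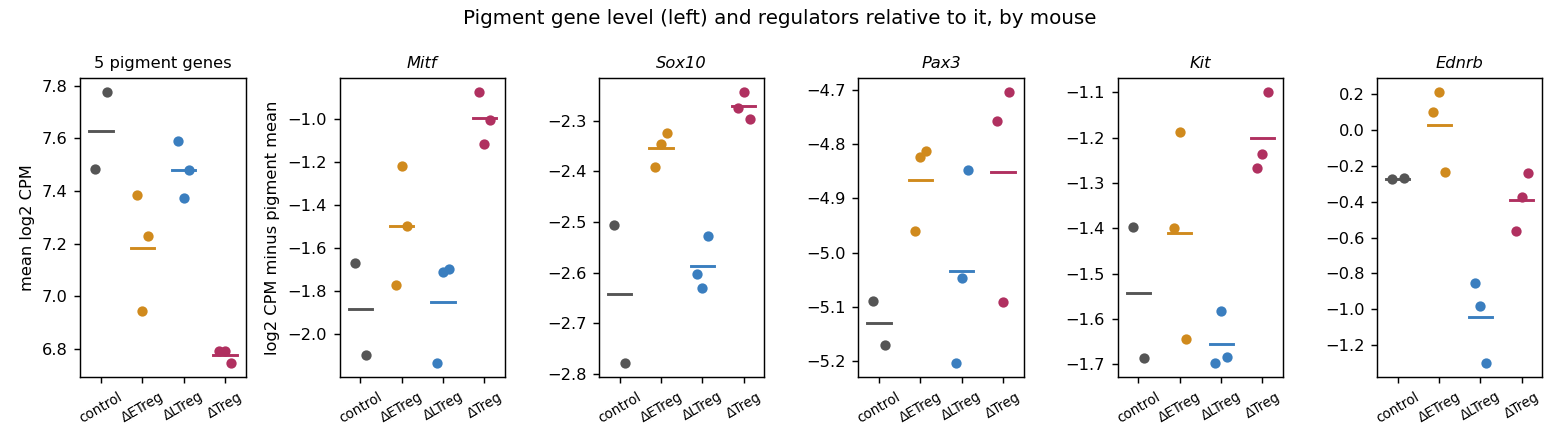
Mean log2 CPM of Tyr, Tyrp1, Dct, Pmel and Mlana in each mouse (left), and the log2 CPM of each regulator minus that mean, with 1 point a mouse, a bar for the mean of each group and axes that do not start at 0. The pigment mean is lowest in the 3 ΔTreg mice, at 6.75 to 6.79, and Mitf relative to it is highest there, at −1.11 to −0.87. Any gene that fell less than the pigment genes is higher on this scale in ΔTreg mice.

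Of 14 tested genes for other transcription factors of the lineage, a list that includes the neuregulin receptor gene Erbb3, 3 were lower and 2 higher in ΔTreg against control (35.7% called, against 21.5% of all genes), with a median log2 fold change of −0.01. Tfec, a relative of Mitf that macrophages also make, was at 0.49 and 0.558 CPM in control mice, at 0.418 to 0.657 CPM in ΔETreg mice, at 0.209 to 0.667 CPM in ΔLTreg mice and at 8.62, 4.16 and 4.67 CPM in ΔTreg mice. It rose 10.9-fold against control (log2 fold change 3.45, SE 0.449, adjusted p = 0.000337). Tfe3, another relative of Mitf, rose by 0.37 (adjusted p = 0.00301), and Tfap2b, an AP-2 factor, fell by 0.33 (adjusted p = 0.000883). Sox5 was higher in ΔETreg than in ΔLTreg skin by 0.51 on the log2 scale with an adjusted p of 0.0392. That call was lost without any 1 of the ΔETreg mice or without the first or the second ΔLTreg mouse (adjusted p = 0.061 to 0.13).

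Of 23 genes of the intracellular KIT pathway, 1 was lower and 3 were higher in ΔTreg against control (17.4%, against 21.5% of all genes), with a median of −0.02. The higher genes were Map2k1, the kinase MEK1, with a log2 fold change of 0.32 (adjusted p = 0.000855), Ptpn6, a phosphatase abundant in blood cells, with 0.63 (adjusted p = 0.000954), and Rps6ka1, the kinase RSK1, with 0.26 (adjusted p = 0.00179). Spry4, a feedback inhibitor of the pathway, was lower in ΔLTreg than in control skin by 0.32 on the log2 scale (adjusted p = 0.0381), a call lost without any 1 of the 5 mice compared (0.0511 to 0.187), with DESeq2 (0.245), with edgeR on the 2 groups alone (0.216) and without the filter on low counts (0.123). Spry4 was also lower in ΔLTreg than in ΔETreg skin (adjusted p = 0.0143), at 11.7 to 12.2 CPM against 15.1 to 15.5 CPM, and there the adjusted p was 0.0623 without the second ΔETreg mouse.

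Of 9 other genes of the endothelin system that were tested, 2 were lower and 1 higher in ΔTreg against control (33.3% called, against 21.5% of all genes), with a median log2 fold change of −0.24. Ednra, the other endothelin receptor, was also lower in both groups with late injections. It was at 25.3 and 31.7 CPM in control mice, at 34.7, 31.2 and 26.7 CPM in ΔETreg mice, at 17.4, 17.4 and 16 CPM in ΔLTreg mice and at 18.7, 20.8 and 23.1 CPM in ΔTreg mice. As for Ednrb, the low groups are those known to have been harvested at P13, so age and late depletion cannot be told apart. Ednra fell by 0.75 on the log2 scale in ΔLTreg (SE 0.128, adjusted p = 0.0097) and by 0.45 in ΔTreg (SE 0.128, adjusted p = 0.0293) against control, and ΔETreg exceeded ΔLTreg by 0.87 (SE 0.116, adjusted p = 0.00235). Without the second control mouse the adjusted p against control was 0.0839 in ΔLTreg and 0.279 in ΔTreg, and in ΔTreg it was 0.0912 without the first ΔTreg mouse and 0.0739 without the second. With edgeR on the 2 groups alone the adjusted p in ΔLTreg was 0.0519. Ece1, which cleaves endothelin precursors, rose by 0.37 in ΔTreg (adjusted p = 0.00141), and Gna11, a G protein subunit downstream of the receptors, fell by 0.25 (adjusted p = 0.00335).

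In the HGF and MET system 0 of 12 genes tested were lower and 4 were higher in ΔTreg against control by edgeR's test (33.3% called, against 21.5% of all genes). DESeq2 called 0 lower and 5 higher, and 1 gene was lower at an unadjusted p under 0.05 (Plat, log2 fold change −0.27, adjusted p = 0.0831). The median was 0.19. Mst1, the HGF-like ligand, rose by 1.00 (SE 0.166, adjusted p = 0.00158) and its receptor gene Mst1r by 0.87 (SE 0.187, adjusted p = 0.00687), with an adjusted p of 0.0788 without the second control mouse. Plau, urokinase, rose by 0.87 (SE 0.148, adjusted p = 0.00181), at 27.3 and 29.4 CPM in control mice and 65.2, 45.5 and 45 CPM in ΔTreg mice. Against ΔLTreg, Cd44, the hyaluronan receptor, was higher by 0.34 (adjusted p = 0.000632). Spint2, an inhibitor of HGF-activating proteases, was lower in ΔETreg than in ΔLTreg skin by 0.25 on the log2 scale (adjusted p = 0.0493), a call lost without any 1 of the ΔETreg mice or without the first or the second ΔLTreg mouse (0.0792 to 0.174), with DESeq2 (0.0531), with its size factors (0.05) and with edgeR on the 2 groups alone (0.129).

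Of 18 other ligands of the melanocyte niche that were tested, 3 were lower and 1 was higher in ΔTreg against control, with a median of −0.10. The share called, 22.2%, was near the 21.5% of all genes. Ptn, pleiotrophin, fell by 0.63 (SE 0.0662, adjusted p = 8.62e-05) and Fgf2, a melanocyte mitogen, by 0.61 (SE 0.119, adjusted p = 0.00408). Tgfb1 rose by 0.64 (SE 0.0743, adjusted p = 0.000166). Fgf7, keratinocyte growth factor, fell by 0.84 in ΔLTreg (SE 0.162, adjusted p = 0.017), where Fgf2 also fell, by 0.50 (SE 0.118, adjusted p = 0.0393). Both of these calls were lost without either control mouse (adjusted p = 0.0634 to 0.198) and on the 2 groups alone (0.126 and 0.135), and that of Fgf2 also without the second or the third ΔLTreg mouse (0.0898 and 0.0775). Wnt10b was higher in ΔETreg than in ΔLTreg skin by 0.47 (adjusted p = 0.0198) and Fgf7 by 0.67 (adjusted p = 0.0246), and both calls were lost without any 1 of the ΔETreg mice (0.0501 to 0.0732). The call of Wnt10b was also lost without the second ΔLTreg mouse (0.0508), and that of Fgf7 on the 2 groups alone (0.0627).

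**Figure D4:**
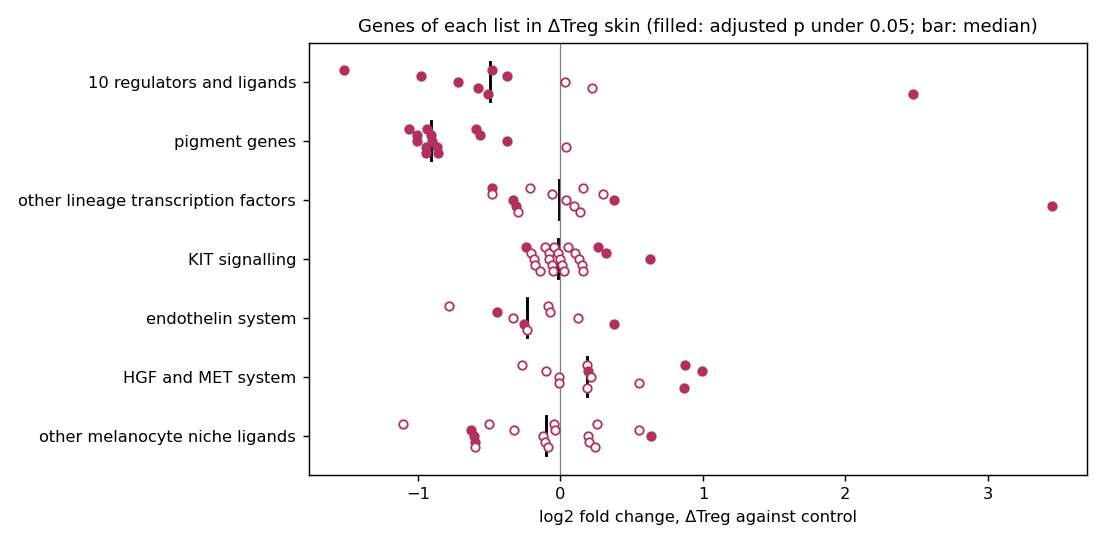
Log2 fold change in ΔTreg against control of the 10 genes and of the tested genes of 6 related lists, with a filled point where the adjusted p was under 0.05 and a bar at the median of each list. The pigment genes have their median at −0.91, and the other 5 related lists between −0.24 and 0.19.

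For the genes called in ΔTreg skin and for Mitf, the 3 genes with the most similar log2 CPM over the 11 libraries were found among 13896 genes with a mean count of at least 50. The correlation is a description over mice that fall into 4 groups, so the correlation of deviations from the group means is given beside it. The most similar to Ednrb was Prkacb (r = 0.985, within groups 0.962), followed by Alx4 (0.982, within groups 0.909) and Parva (0.979, within groups 0.885). For Kitl it was Prr5l (0.989, within groups 0.973), followed by Dapl1 (0.969, within groups 0.845) and Usp1 (0.968, within groups 0.844). Sox10 was most like Ilf2 (0.957, within groups 0.824) and 2 pigment genes, Slc24a5 (0.957, within groups 0.845) and Trpm1 (0.953, within groups 0.896).

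The genes most like Hgf were Tnfrsf11b, which encodes osteoprotegerin (r = 0.982, within groups 0.889), Fas, the death receptor (0.979, within groups 0.946), and H6pd (0.974, within groups 0.828). For Mitf they were Fbxo38 (0.922, within groups 0.9), Rhpn2 (0.92, within groups 0.937) and Ptpn3 (0.919, within groups 0.902). For Edn3 they were Kctd15 (0.959, within groups 0.718), Egfl6 and Pdzd4, of which the latter pair had within-group values of 0.478 and 0.432. Kit was most like Ascc1, Rab5b and Nxt2 (r = 0.927 to 0.935, within groups 0.707 to 0.81), Pax3 like Clpb, Ift74 and Zmynd19 (0.919 to 0.923, within groups 0.699 to 0.832), and Met like Rbm48, Gm44065 and Mrps6 (0.928 to 0.942, within groups 0.883 to 0.973).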

How the data were processed

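Whole skin of 11 mice (4 mm biopsies, RNA libraries by polyA selection or rRNA depletion) was sequenced, and each mouse was a separate sample of its group by the labels. The authors trimmed reads with Trimmomatic 0.36, aligned them to GRCm38 with STAR 2.5.2b and counted exonic reads per gene with featureCounts of Subread 1.5.2. They deposited raw counts, without normalization. The annotation release and strand setting are not given in the sources used here, so genes were named and placed by GENCODE M21.

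In edgeR 4.0.16 (R 4.3.3, limma 3.58.1), filterByExpr left 18375 of 49315 genes. One quasi-likelihood fit with TMM scaling covered all 11 libraries (common dispersion 0.01204), and p-values were adjusted by Benjamini-Hochberg over all genes tested. The SE is the size of the log2 fold change over the root of its F statistic, log2 CPM used a prior count of 2, and RPKM used the union of exons. The floor of 3 counts covers counting error only. The steps were tested on simulated data. Alternatives were DESeq2 1.42.0, other samples, scaling and filters, and leaving out each mouse.

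The 10 genes, the related lists and the marker lists were chosen with earlier results of these data known. The genes named are the 10, up to 3 called genes of each related list with the smallest p in ΔTreg against control and up to 2 in each other comparison, the 3 genes most like Mitf and each called gene, and marker genes. Gpnmb, Erbb3 and Plat were named after their values were seen. Groups follow the treatment label. Samples carry no batch label. The Schwann cell marker list is not reported here.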

Additional observations from a re-analysis of the deposited data

How the results depend on the processing

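No paired analysis was possible because the labels give the mice no shared replicate numbers. The alternatives were DESeq2 on the 2 groups compared, edgeR on those groups alone, DESeq2 size factors, no filter beyond 1 count, at least 10 counts in every library (which left Hgf untested) and each of 11 mice left out in turn. Of 294 values of the 10 genes under the first 5, 285 kept direction and call, 4 lost and 4 gained a call, and 1 uncalled value changed sign (Met in ΔETreg against ΔLTreg, 0.003 with DESeq2). Of 330 values with 1 mouse left out, 282 kept both, 28 lost a call, 2 gained one and 18 changed sign. In ΔTreg against control, the calls of Kit, Ednrb, Kitl, Edn3 and Hgf held in every setting that tested them. Edn1 was called there with edgeR on the 2 groups alone (adjusted p = 0.0427).

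Genes called in ΔETreg against control numbered 1, and 19 with DESeq2, 0 with edgeR on the 2 groups alone, 54 without the filter, 0 with at least 10 counts, and 0 to 7 with 1 mouse left out. In ΔLTreg against control 836 genes were called, 154 on the 2 groups alone and 1790 without the filter, and in ΔETreg against ΔLTreg 1173, 540 and 2173. On the 2 groups alone, 0 of the 10 genes were called in either comparison, where edgeR on all groups called 1. The cause was not tested.

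With 1 mouse left out, which in the case of a control mouse leaves a single one assumed to vary like the other groups, the genes called ranged from 292 to 903 in ΔLTreg against control, 2026 to 3493 in ΔTreg against control, 353 to 1172 in ΔETreg against ΔLTreg and 1987 to 2942 in ΔTreg against ΔLTreg. Of the 10 genes, 0 to 1, 5 to 8, 0 to 2 and 3 to 5 were called in these comparisons, in the same order. In ΔTreg against control, 3 to 4 of the other lineage factors and 2 to 4 of the HGF and MET genes were called. The lowest counts of genes and of the set in ΔTreg against control both came without the second control mouse, as did the 0 in ΔLTreg.

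Log2 fold changes that changed sign were uncalled. In ΔETreg against control Mitf ranged from −0.13 to 0.0068 and Ednrb from −0.29 to 0.015, in ΔLTreg against control Pax3 from −0.15 to 0.063, in ΔTreg against control Mitf from −0.044 to 0.098, and in ΔTreg against ΔLTreg Ednrb from −0.19 to 0.10. In ΔETreg against ΔLTreg Mitf ranged from −0.035 to 0.14, Sox10 from −0.14 to 0.050, Kit from −0.15 to 0.047, Kitl from −0.020 to 0.097, Edn3 from −0.017 to 0.15, Hgf from −0.20 to 0.31 and Met from −0.088 to 0.073. Depth limited Hgf most, with 8 to 26 counts a library outside ΔTreg skin, so that its fold changes there had intervals reaching from −0.59 to 1.39 against control.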
